A study of Rattus norvegicus with 4 samples.

Results

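The response to angiotensin II (Ang II) of vessels that lack protein kinase C beta was read from 2 of the 4 arrays of the series, the knockout control (KO control) and the knockout treated with Ang II (KO Ang II). All groups came from male rats. The WT groups were Wistar rats and the KO groups were transgenic rats whose genotype is given as PKCbeta deletion, a deletion that KO control vessels carried too. The Ang II vessels of both genotypes had 24 h of the peptide. The vessels came from 4 rats per genotype, and 100 ng of total RNA was labelled with Cy3 for 1 array per group. The sources used here do not give the vascular bed, the age and background strain of the KO rats, the dose, or any pooling of RNA between rats. With 1 array per group no difference has a replicate check, so no p-value is given and a size of 2-fold stands in for a test.

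Members were the probes flagged well above background on at least 1 of the 2 KO arrays, which left 19609 of 45594 probes. Of these, 11532 carried a gene name and gave 9271 genes out of 16580 named on the array. On both KO arrays 8705 genes were measured. The other 566 were well above background on 1 array only, 228 in untreated and 338 in treated KO vessels, and their differences are bounds. A level below is the log2 signal of the gene's brightest probe minus the array's 75th percentile, so 0 is that percentile, and a difference is KO Ang II minus KO control on that log2 scale. Levels of different genes come from different probes and are not set against each other.

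Ang II is the effector peptide of the angiotensin system. It acts on smooth muscle through a receptor coupled to Gq proteins, which activate phospholipase C, raise calcium and produce diacylglycerol. Diacylglycerol in turn activates the classical protein kinases C, among them the beta isoform, so vessels without this isoform lack 1 of the kinases on that route. In vessels the peptide is known for contraction, growth, oxidant production by NADPH oxidases and inflammation.

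Prkcb encodes the deleted kinase and had 2 probes on the array. That with 10 spots gave a processed signal of 14.8 and 18 for untreated and treated WT vessels and 1.94 and 1.89 for untreated and treated KO vessels, and neither KO value was well above background. The other probe gave 8.27, 12.2, 1.90 and 1.73 in the same order. No fold is given for Prkcb between the KO arrays, since both lay below background. The sources used here do not say where the deletion lies relative to the probes. Smooth muscle genes were present on both KO arrays. Myh11, the smooth muscle myosin heavy chain, had a level of 6.54 in untreated and 6.75 in treated KO vessels, and the smooth muscle actin Acta2 had 3.52 and 3.45. The endothelial adhesion protein Pecam1 was measured too, at 1.74 and 2.05.

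The 2 KO arrays differed little. The median difference over the 8705 measured genes was -0.01 and the SD was 0.26, with an SD of 0.39 in the dimmest 20% of genes and 0.17 in the brightest 20%. Past 2-fold upward were 18 of 9271 genes (0.194%), and past 2-fold downward were 73 (0.787%). Among genes measured on both arrays the counts were 12 (0.138%) and 42 (0.482%). At 1.5-fold they were 135 (1.55%) higher and 179 (2.06%) lower. Most of the genes past 2-fold were dim, since 9 of the 12 higher and 26 of the 42 lower lay in the dimmest 20%. With another background correction (normexp with an offset, which shrinks differences of dim probes) none of the 18 and 4 of the 73 stayed past 2-fold, namely Mmp13, Mmp3, Arsl and Pdilt. In the main values, 2 higher and 7 lower genes had a mean level at or above the 75th percentile of the array. The scanner software's own error for a difference had a median of 0.21, and 594 genes read by probes with 10 spots had a median standard error over spots of 0.03. Both describe the reading of a spot and not the spread between animals.

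**Figure D1:**
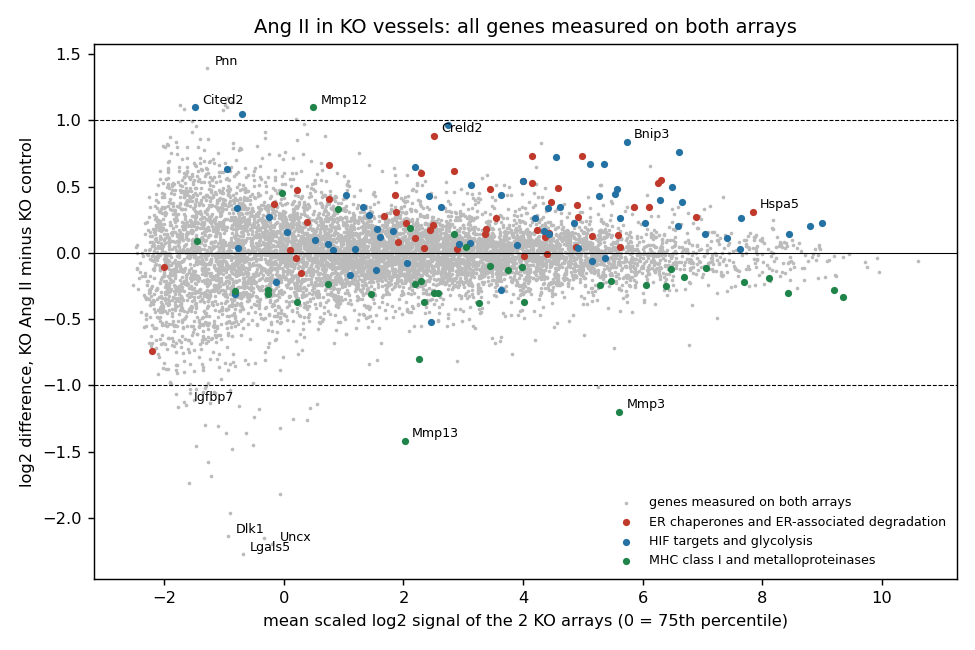
Each point is 1 of 8705 genes measured on both KO arrays, with the mean scaled log2 signal of the 2 arrays on the horizontal axis and the log2 difference, KO Ang II minus KO control, on the vertical axis; dashed lines mark 2-fold. Coloured points are members of 3 pairs of gene lists: ER and HIF or glycolysis members lie mostly above 0 among bright genes, MHC class I and metalloproteinase members mostly below, and the largest differences of all genes lie at low signal.

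Genes of the endoplasmic reticulum (ER) stood higher with Ang II as a group, by less than 2-fold each. The ER folds secreted proteins with chaperones and sends misfolded ones back to the cytosol for degradation, and cells raise both sets of genes when unfolded protein accumulates. Of 23 chaperones and folding enzymes measured on both arrays, 21 lay above 0, against 48.3% of all measured genes, and their median difference was 0.35 against -0.01 over all. None reached 2-fold in either direction, and 3 passed 1.5-fold. Of 27 genes of ER-associated degradation and translocation, 23 were above 0, and their median was 0.21. In that list 3 genes passed 1.5-fold upward and 1 downward. Of all measured genes 1.55% passed 1.5-fold upward and 2.06% downward. No member of either list reached 2-fold. On WT arrays the medians of the same lists were 0.26 and 0.13.

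Creld2, a secreted ER stress protein, had levels of 3.55 and 4.42 for untreated and treated WT vessels and 2.07 and 2.95 for untreated and treated KO vessels, a difference of 0.88 between the KO arrays. KO control was the lowest array and both KO arrays lay below both WT arrays. Sdf2l1, which assists folding in the ER, read 4.71, 4.96, 3.79 and 4.52, a difference of 0.73. Dnajc3, a co-chaperone that also inhibits the kinase PERK, read 2.82, 2.95, 1.99 and 2.59, a difference of 0.60. For both of these genes KO Ang II lay between KO control and the WT arrays. The disulphide isomerase P4hb had 7.32, 7.89, 6.03 and 6.58, a difference of 0.55 in a probe with 10 spots. Pdia6, of the same family, had 5.25, 5.76, 3.88 and 4.41, and the ER oxidase Ero1a had 4.57, 4.64, 3.73 and 4.27. Hspa5, the central ER chaperone also called BiP, had 8.02, 8.03, 7.69 and 8.0, so its treated KO value stood close to the WT values.

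In the degradation list, Derl3, a subunit of the channel through which proteins leave the ER, had levels of 5.45 and 5.91 for untreated and treated WT vessels and 4.62 and 5.34 for untreated and treated KO vessels. Dnajb9, a co-chaperone of Hspa5, had 1.91, 2.32, 0.43 and 1.09. Herpud1, which organises the degradation complex, had 5.45, 5.23, 4.34 and 4.83. In all of these KO control was again the lowest of the 4 arrays. Ssr3, part of the translocon-associated complex, also had its lowest value on KO control (2.53), and its KO Ang II level of 3.15 was the highest of the 4. Spcs2, a subunit of signal peptidase, went the other way and had -1.84 in untreated and -2.58 in treated KO vessels, with a software error of 0.39 on the difference. KO control was the lowest array for 18 of the 23 chaperones and 18 of the 27 degradation genes, against 24.7% of all measured genes. The contrast itself contains that array, so a gene with a positive difference more often has it lowest, and this count is a description.

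**Figure D2:**
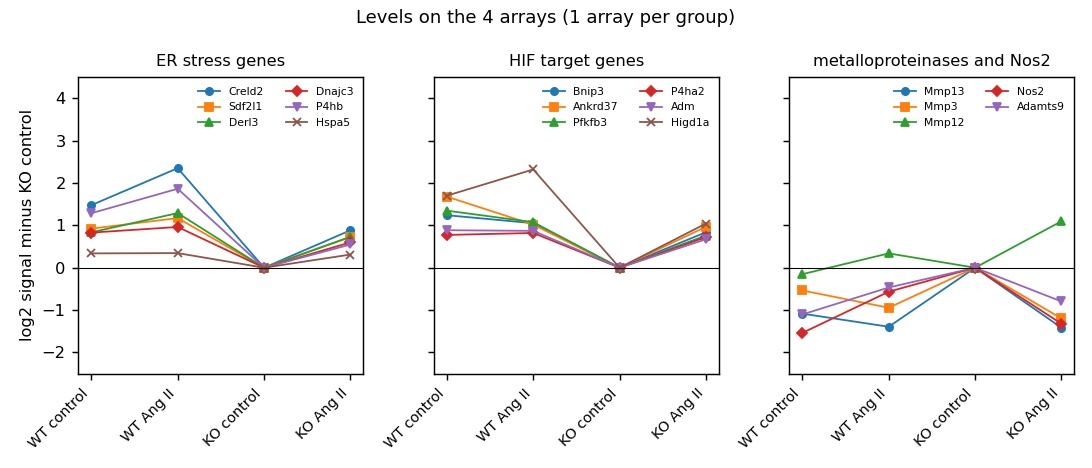
Log2 signal of named genes on each of the 4 arrays (1 array per group) minus the KO control array, on a shared vertical axis. In the ER and HIF panels every WT point and every KO Ang II point lies above the KO control point at 0, and in the right panel Mmp13, Mmp3, Nos2 and Adamts9 have all their other points below it while Mmp12 is highest on KO Ang II.

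Promoter sequence is shown for the ER genes because a known element is more frequent in them than in other promoters. The ER stress element, bound by the factors NF-Y and ATF6, consists of CCAAT, 9 bases and CCACG, and was searched on both strands of the 300 bases that run from 250 before to 50 after each RefSeq start site (build GRCr8). Promoters were matched for 20 of the 23 measured chaperones, and 6 of the 20 (30.0%) held it. In the degradation list 2 of 23 (8.70%) held it, against 12 of 7182 measured genes with a promoter (0.167%) and 21 of 27457 promoters in the table (0.0765%). The letters CCACG followed by T overlap the motif ACGTG on the other strand. The windows below read 5′ to 3′ on the strand where the element reads as searched, with its fixed letters in capitals and up to 20 bases on each side.
Creld2, chr7:121789219-121789277, minus strand: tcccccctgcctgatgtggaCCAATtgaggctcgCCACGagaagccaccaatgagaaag
Derl3, chr20:12766581-12766639, plus strand: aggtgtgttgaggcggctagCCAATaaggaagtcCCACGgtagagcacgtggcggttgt
Dnajc3, chr15:102432514-102432572, plus strand: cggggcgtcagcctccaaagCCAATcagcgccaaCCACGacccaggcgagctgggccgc
Hspa5, chr3:38452953-38453011, plus strand: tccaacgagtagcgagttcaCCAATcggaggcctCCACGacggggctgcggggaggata
Canx, chr10:35158049-35158107, minus strand: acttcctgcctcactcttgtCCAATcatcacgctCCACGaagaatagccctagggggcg
Xbp1, chr14:84604538-84604596, plus strand: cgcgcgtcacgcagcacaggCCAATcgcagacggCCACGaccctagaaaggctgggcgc

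Across the 12 measured genes that hold the element, 10 differences lay above 0, with a median of 0.33 and a range from -0.25 to 0.88. In order of size they were Creld2 (0.88), Derl3 (0.73), Dnajc3 (0.60), calreticulin Calr (0.35), the chaperone Hsp90b1 (0.35), Zfand2a (0.34), Hspa5 (0.31), calnexin Canx (0.27), Xbp1 (0.17), Hnrnpa3 (0.12), Ankmy2 (-0.02) and Ppm1l (-0.25). Of the 4 genes that are in neither ER list, the proteasome adaptor Zfand2a and Hnrnpa3 lay above 0, and Ankmy2 and Ppm1l lay below. Only Zfand2a lay above 0.30. Of all measured genes 48.3% lay above 0. The remaining holders belong to the ER lists described above, so their values repeat those lists and are no separate result. A shorter form, the second ER stress element (ATTGG, 1 base, CCACG), was in 7 measured promoters, and 6 of 7 lay above 0. Of these Hyou1 (0.53), Herpud1 (0.49) and Dnajb11 (0.28) are in the ER lists. Those in neither list were Ggct (0.25), Cdc45 (0.07), Cdc27 (0.004) and Nucb1 (-0.11). A match of letters is not a shown binding site.

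Genes that the transcription factor ATF4 drives in amino acid shortage and in the integrated stress response showed a smaller shift. Of 36 measured, 30 lay above 0, with a median of 0.20, against -0.02 for the same genes on the WT arrays. None reached 2-fold and 1 in each direction passed 1.5-fold, against 1.55% of all measured genes upward and 2.06% downward. Sars1, the seryl-tRNA synthetase, had levels of 0.57 and 0.53 for untreated and treated WT vessels and 0.29 and 0.96 for untreated and treated KO vessels. Trib3, a pseudokinase of this response, had 3.74, 3.22, 3.29 and 3.80. Slc3a2, a subunit of amino acid transporters, had 3.50, 4.23, 3.04 and 3.49. Sars1 and Trib3 were highest on KO Ang II, unlike Slc3a2, which was highest on WT Ang II. The stress gene Sesn2 was below background on KO control and is a bound of at least 1.59-fold higher, and the serine synthesis enzyme Psph went the other way, from 0.18 to -0.47. Atf4 itself had 4.98 in untreated and 5.25 in treated KO vessels, and Ddit3, which encodes CHOP, had 7.13 and 7.55.

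The composite element TGATGNAAN, to which ATF4 binds with a C/EBP partner, is shown because it was more frequent in this list. It was found in 10 of 32 matched promoters of measured members (31.2%) and in 2.20% of the promoters of measured genes. All 10 lay above 0, from 0.05 for Aars1 to 0.51 for Trib3, with a median of 0.26, and the 22 members without it had a median of 0.22, so the members differed little by it. The element is in capitals, and windows stop at the start site.
Trib3, chr3:161275534-161275575, plus strand: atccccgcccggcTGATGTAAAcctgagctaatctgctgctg
Nupr1, chr1:190645929-190645977, plus strand: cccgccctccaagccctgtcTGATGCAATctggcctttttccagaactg
Chac1, chr3:126795943-126795991, minus strand: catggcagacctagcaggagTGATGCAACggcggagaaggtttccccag

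Nupr1, a stress-induced chromatin protein, had levels of 5.43, 5.28, 5.55 and 5.87 on the 4 arrays, and Chac1, which degrades glutathione, had -0.56, 0.13, -0.76 and -0.62. Nupr1 was thus highest on KO Ang II, while Chac1 was highest on WT Ang II.

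Target genes of the hypoxia-inducible factors (HIFs), which accumulate when oxygen is low and can also be raised by hormones and metabolites, stood higher with Ang II in KO vessels. Outside glycolysis, 28 of 33 measured members lay above 0 with a median of 0.28, 7 passed 1.5-fold and 2 passed 2-fold. Of all measured genes 48.3% lay above 0, 1.55% passed 1.5-fold upward and 0.138% passed 2-fold upward. No member was lower by 1.5-fold. Of 31 measured glucose transporters and glycolytic enzymes, 27 lay above 0 with a median of 0.20, and none reached 2-fold. On the WT arrays the medians of the same lists were 0.05 and -0.01. KO control was the lowest of the 4 arrays for 24 of the 33 and 17 of the 31, against 24.7% of all measured genes. That array is part of the contrast, so these counts are a description.

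The 2 members past 2-fold were dim. Cited2, which competes with HIFs for their coactivator, had levels of -0.65 and -1.36 for untreated and treated WT vessels and -2.03 and -0.94 for untreated and treated KO vessels, a rise of 1.1 with a software error of 0.34. Higd1a, a mitochondrial protein of the respiratory chain, had 0.49, 1.11, -1.21 and -0.17, a rise of 1.04. In both genes KO control was the lowest array. The bright members moved by less. Bnip3, a mitophagy receptor, had 6.55, 6.37, 5.32 and 6.15, and its probe with 10 spots gave a difference of 0.84 with a standard error over spots of 0.03. Ankrd37 had 3.94, 3.27, 2.26 and 3.22, and P4ha2, a collagen prolyl hydroxylase, had 4.96, 5.0, 4.18 and 4.90. The vasodilator peptide gene Adm had 5.67, 5.66, 4.79 and 5.46. For each of these 4 genes KO Ang II stood below WT control and above KO control. Vegfa, the endothelial growth factor, had 6.83, 6.43, 6.23 and 6.73 and followed the same order.

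Among glucose genes Pfkfb3, whose product makes the activator of phosphofructokinase, had levels of 7.57 and 7.30 for untreated and treated WT vessels and 6.23 and 6.98 for untreated and treated KO vessels, a difference of 0.76. Pdk1 and Pdk3, kinases that inhibit pyruvate dehydrogenase, differed by 0.64 each. The transporter Slc2a1 had 6.05, 5.96, 5.33 and 5.81, and the enolase Eno2 had 6.0, 5.94, 5.31 and 5.75. The transporter Slc2a3 went the other way, with 3.54, 3.52, 2.72 and 2.20 in a probe with 10 spots. Some enzymes of the pathway itself differed by less, as Ldha had 8.37 in untreated and 8.52 in treated KO vessels and Pgk1 had 7.61 and 7.63. Second probes gave a check within the arrays. Probes of the same gene read the same RNA and are not independent. In the glycolysis list 18 of 19 second probes, from 8 genes, lay above 0 with a median of 0.33. In the HIF list 8 of 8, from 7 genes, did with a median of 0.37. In the degradation list 6 of 8, from 7 genes, did with a median of 0.25. The chaperone list had 1 second probe, at -0.09 and opposite in sign to the first.

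HIFs bind around the core ACGTG, shown here in 4 of the members with large differences. It was found in 17 of 27 matched promoters of measured HIF targets (63.0%) and 13 of 28 of the glucose genes (46.4%), against 26.2% of the promoters of measured genes. The core was not particular to these lists. It was also in 56.5% of the promoters of the degradation list, 40.0% of the chaperones and 37.5% of the ATF4 targets. Among all measured genes with a promoter, in a list or not, 1879 held it, and their median difference was 0.01. Within the HIF list, members with it had a median of 0.34 and members without it 0.21, and within the glucose list 0.34 and 0.14. Where C precedes it the core reads the same on both strands, and other factors bind that palindrome. The core is in capitals.
Bnip3, chr1:203155036-203155080, minus strand: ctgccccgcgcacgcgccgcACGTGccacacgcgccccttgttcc
Ankrd37, chr16:53001257-53001295, plus strand: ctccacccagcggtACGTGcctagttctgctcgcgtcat
Pfkfb3, chr17:71944872-71944916, plus strand: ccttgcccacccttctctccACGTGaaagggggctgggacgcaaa
Cited2, chr1:14132124-14132168, plus strand: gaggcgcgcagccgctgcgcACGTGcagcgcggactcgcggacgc

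Cell type markers moved beside these groups, and their part in the results was not tested. Of 15 measured blood endothelial markers 11 were above 0, the median was 0.28 and none passed 1.5-fold. KO control, which is part of the contrast, was the lowest array for 10, against 24.7% of all measured genes. Their summed signal, in multiples of the array's 75th percentile, was 68.4 and 63.5 for untreated and treated WT vessels and 48.6 and 55.7 for untreated and treated KO vessels. Defining members did not all move alike, since the junction protein Cdh5 differed by 0.37 and Pecam1 by 0.31, whereas Vwf differed by -0.06 and the receptor Kdr by -0.16. Of 20 measured macrophage markers 16 lay above 0 (median 0.18), and the summed signals were 201.5, 200.2, 154.1 and 162.6. The lysozyme Lyz2 differed by 0.45, the complement gene C1qc by 0.61 and Cd68 by 0.24. Other markers went the other way, as the receptor Trem2 differed by -0.49 in a probe with 10 spots and the scavenger receptor Cd163 was below background on KO Ang II and at least 1.58-fold lower. In bulk RNA fewer cells of a type and less RNA per cell cannot be told apart.

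Smooth muscle markers had a median of 0.11, with 12 of 20 above 0, and a summed signal of 447.9 in untreated and 475.5 in treated KO vessels. Casq2 and Synpo2 differed by 0.55 and 0.52, and the contractile regulator Cnn1 by -0.45. Fibroblast markers had a median of -0.13, with 5 of 17 above 0, and their summed signal was 631.4 and 556.2. All 6 measured erythroid and platelet markers lay above 0, with a median of 0.39, led by the globins Hbb-b1 (0.62), Hba-a2 (0.54) and Hba-a1 (0.49). The globins are near-identical copies whose probes may cross-read. White adipocyte markers had a median of 0.13, with 7 of 9 measured above 0. With bounds included, 10 of 12 lay above 0 and 2 below. Of the 12, 1 bound, Irs3, passed 2-fold upward, against 0.194% of all genes compared. Pparg and Plin4 differed by 0.53 and 0.43. The hormone Adipoq had levels of -0.35, -0.84, -2.69 and -2.06 on the 4 arrays and was below background on KO control. The hormone Lep and Fabp4, a fatty acid binding protein, were not above background on either KO array. Of the neutrophil markers S100a8, S100a9 and Mmp9 were likewise not above background, and of 20 T and NK cell markers 3 were measured.

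**Figure D3:**
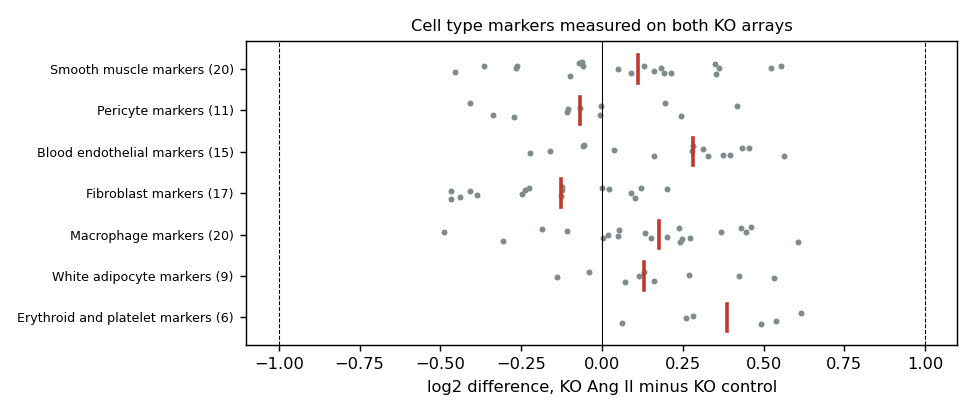
Log2 difference, KO Ang II minus KO control, of each marker gene measured on both KO arrays (points, vertical position jittered), by cell type list, with the number measured in brackets and the list median as a red bar; dashed lines mark 2-fold. Endothelial, macrophage and erythroid medians lie at 0.28, 0.18 and 0.39, the fibroblast median at -0.13, and no marker in the plot reaches 2-fold.

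The angiotensin pathway itself showed no 2-fold difference. The receptor genes Agtr1a, Agtr1b and Agtr2, the precursor gene Agt and the receptor gene Mas1 were not above background on either KO array. Of 16 members measured, 5 were above 0, with a median of -0.05 (0.00 after another background correction). Ace, which encodes the angiotensin-converting enzyme, differed by -0.13 (0.08 with that correction). Of the Gq pathway, the phospholipase Plcb4 had -0.23 and -0.88, the 1 member past 1.5-fold, and Gnaq differed by 0.03. Among other kinases C, Prkcd had 4.40 and 4.25, Prkch differed by -0.10 and Prkci by 0.01. The diacylglycerol-responsive kinase Prkd1 had -1.56 and -2.11 with a software error of 0.36, and the kinase C substrate Marcks had 1.41 and 1.13. Over the 12 measured kinase C genes and binding proteins 7 were above 0 and the median was 0.01 (-0.01 on quantile-normalized values and -0.07 where all probes of a gene were averaged).

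Oxidant genes stayed close to 0 as well. Of 18 measured NADPH oxidase and superoxide genes 10 were above 0, their median was 0.02, and none passed 1.5-fold. Nox4, the constitutively active oxidase, had levels of -0.58 and -1.30 for untreated and treated WT vessels and 0.22 and 0.50 for untreated and treated KO vessels, so both KO arrays were above both WT arrays. Cybb, the phagocyte oxidase, differed by 0.01 and Ncf1 by -0.08, and Nox1 was not above background on either KO array. Sod3, the extracellular superoxide dismutase, had 6.45, 6.76, 7.38 and 7.08.

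Among genes with a mean level at or above the 75th percentile, 6151 of the 8705 measured, the largest difference in each direction was that of a matrix protease. Mmp13, an interstitial collagenase, fell by 1.42, with levels of 1.65 and 1.34 for untreated and treated WT vessels and 2.73 and 1.32 for untreated and treated KO vessels. Mmp3, stromelysin, fell by 1.20, with 5.67, 5.26, 6.20 and 5.0. For both genes KO control was the highest and KO Ang II the lowest of the 4 arrays, although treated WT vessels stood close to treated KO vessels. Mmp12, the macrophage elastase, rose by 1.1 (0.50 after the other background correction), with -0.21, 0.28, -0.06 and 1.04, and was highest on KO Ang II. Adamts9 had 1.55, 2.19, 2.66 and 1.86 and differed by -0.80. Of 19 measured metalloproteinases and inhibitors 6 were above 0 and the median was -0.25, against 0.10 on WT arrays. In this list 1 gene rose and 2 fell past 2-fold, against 0.138% and 0.482% of all measured genes. The 3 second probes read in this list all lay below 0.

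Other matrix and protease genes stood lower by small amounts. Of 11 measured collagens 1 lay above 0, with a median of -0.17, and Col1a2 had levels of 6.47, 6.38, 5.84 and 5.40 on the 4 arrays while Col1a1 had 6.38, 6.29, 5.90 and 5.66. In both genes the KO arrays were below the WT arrays. Col5a3 had -0.48 in untreated and -1.24 in treated KO vessels and was the 1 collagen past 1.5-fold. Of 19 plasminogen activators, serpins and coagulation genes 3 were above 0 and the median was -0.14. Plau, urokinase, differed by -0.68, and Plat, the tissue activator, had 5.38, 6.23, 5.27 and 4.88. Of 18 collagen processing and cross-linking enzymes 11 lay above 0 and the median was 0.06. The highest of them were P4ha2, P4hb and Serpinh1, at 0.72, 0.55 and 0.36, which are counted in the HIF or ER lists or act in the ER, and the lowest was Loxl3 at -0.33.

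Genes that make vasoactive mediators included several that were lower with Ang II. Nos2, the inducible nitric oxide synthase, fell by 1.32 (-0.59 after the other background correction), with levels of -0.95 and 0.03 for untreated and treated WT vessels and 0.59 and -0.73 for untreated and treated KO vessels. The soluble guanylate cyclase subunits Gucy1a1 and Gucy1b1, which sense nitric oxide, differed by -0.59 and -0.32, and 4 of the 16 measured nitric oxide and cGMP genes lay above 0, with a median of -0.10. Ptges, the inducible prostaglandin E synthase, had 3.03, 4.20, 3.30 and 2.48, so KO Ang II was the lowest and WT Ang II the highest array. Pla2g4a, the cytosolic phospholipase that releases arachidonic acid, had -0.29, 0.74, 0.09 and -0.71, in the same order, and Pla2g2a had 4.03, 3.90, 3.81 and 3.16. Other prostanoid genes did not share this, since 9 of 15 measured members lay above 0 and the median was 0.05. Of 13 measured vasoactive receptors 7 lay above 0 and the median was 0.01 (-0.06 after that correction and -0.04 where all probes of a gene were averaged). The lowest members were dim, as the adrenergic receptor Adra1a was below background on KO Ang II and at least 3.13-fold lower there, and the ATP-gated channel P2rx1 fell by 1.12 from a dim level of -1.11.

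The lists of cytokines and chemokines, interferon-stimulated genes and NF-kB regulators gave no group rise in KO vessels. Of 36 measured cytokines and chemokines 9 lay above 0, with a median of -0.18 against 0.70 on the WT arrays, and none reached 2-fold. Second probes of this list did not follow, with 4 of 7 above 0, a median of 0.04 and the sign of the first probe in 2 of 7. Cxcl13, a B-cell chemokine, had levels of 4.78 and 4.66 for untreated and treated WT vessels and 5.88 and 5.16 for untreated and treated KO vessels, and Csf3 had 2.73, 3.78, 3.01 and 2.46. Ccl20 had 1.89, 2.58, -0.25 and -1.06, with both KO arrays far below both WT arrays. A pair of dim members passed 1.5-fold upward, Il23a, from -1.21 to -0.59, and Tnf, from -0.81 to -0.22, and 3 members passed it downward. Of all measured genes 1.55% passed 1.5-fold upward and 2.06% downward. Of 37 interferon-stimulated genes 11 were above 0 and the median was -0.09, against 0.69 on the WT arrays. Bst2, a membrane tether of budding viruses, had 3.15, 4.82, 4.20 and 3.44. Of 20 NF-kB regulators and adhesion molecules 8 lay above 0, with a median of -0.07 (0.02 after another background correction), against 0.56 on the WT arrays. Tnfaip2 differed by -0.68.

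Among antigen presentation genes class I stood lower as a group, while only some class II genes stood higher. Of 19 measured MHC class I and peptide loading genes 1 was above 0, the median was -0.23 and none passed 1.5-fold, and 7 second probes gave 1 above 0 with a median of -0.16. RT1-A1 had levels of 9.01, 9.21, 9.52 and 9.19 on the 4 arrays and the peptide transporter Tap2 had 2.21, 3.23, 2.53 and 2.15. The class I genes of the rat are close copies, so their probes are not independent. Among class II genes, RT1-Bb had -1.80, -1.41, -1.83 and -0.97, RT1-Da had -0.69, -0.86, -1.26 and -0.44, and RT1-Db1 had -0.64, -0.46, -0.36 and 0.40. All of these were highest on KO Ang II, and Cd74, the invariant chain, was too, with 0.82 in untreated and 1.24 in treated KO vessels. RT1-Bb and RT1-Da were dim, with software errors of 0.29 and 0.26 on their differences. The rest of that list, which includes lysosomal enzymes and costimulators, was near or below 0, and over its 9 measured members the median was -0.05 (0.07 after another background correction). Clec4a3, a lectin of myeloid cells, rose by 1.17 from a dim -1.52, while 8 of the 16 measured lectins and pattern receptors of myeloid cells lay above 0, with a median of -0.03 (0.02 after that correction). In that list the pattern receptor Tlr2 and the lectin Clec10a differed by -0.24 and -0.25. The complement receptor C5ar1 had -1.70 and -0.84. The macrophage marker values given above moved with these genes, and their part in them was not tested.

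**Figure D4:**
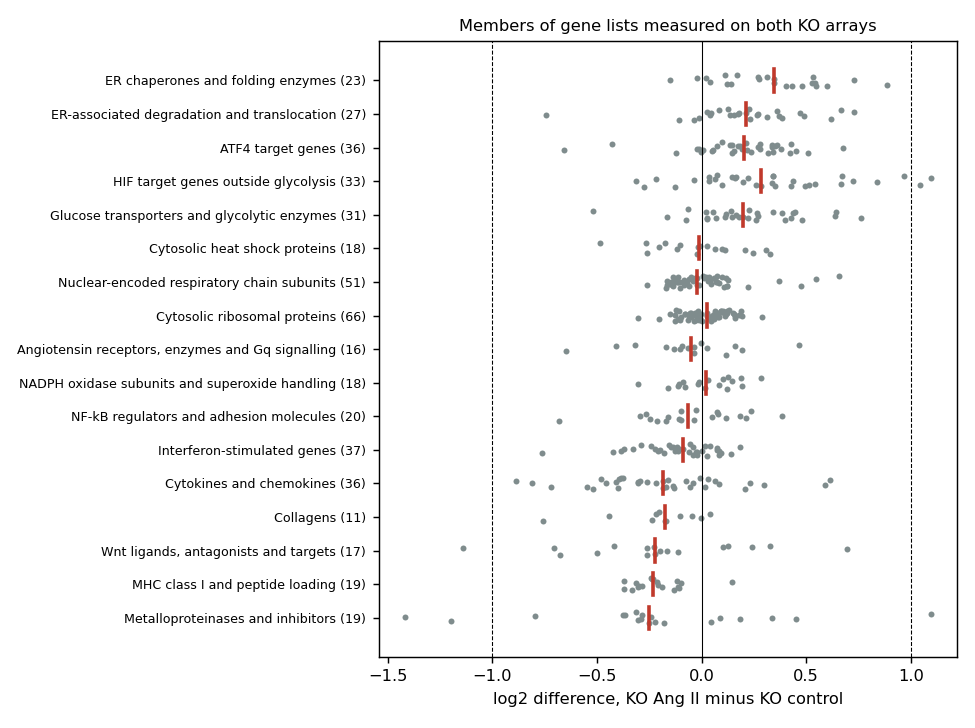
Log2 difference, KO Ang II minus KO control, of each gene measured on both KO arrays (points, vertical position jittered) in 17 lists, with the number measured in brackets and the list median as a red bar; dashed lines mark 2-fold. The upper 5 lists, of ER, ATF4, HIF and glycolysis genes, have medians from 0.20 to 0.35, heat shock, respiratory and ribosomal genes lie close to 0, and MHC class I and metalloproteinases have medians of -0.23 and -0.25.

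The largest differences over all brightness levels were falls of dim genes. Lgals5, a galectin, fell by 2.27, with levels of -0.39 and -0.94 for untreated and treated WT vessels and 0.45 and -1.83 for untreated and treated KO vessels. Uncx, a homeobox factor, fell by 2.20, with 0.52, -0.29, 0.91 and -1.29, and Dlk1, an imprinted growth regulator, fell by 2.14, with -0.24, -0.99, 0.14 and -1.99. All of these were highest on KO control and lowest on KO Ang II. Oxct2b fell by 2.15, Ptges3l1 by 1.96, Pcsk1, a prohormone convertase, by 1.82 and Plagl1, another imprinted factor, by 1.68. In Ptges3l1 both WT arrays stood at -2.15 and -1.99, near the KO Ang II level of -1.88, so KO control alone was high. Among the 42 measured genes past 2-fold downward KO control was the highest array for 38, against 28.1% of all measured genes, and among the 12 upward it was the lowest for 9. As above, that array is part of the contrast that chose them.

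Wnt inhibitors and growth factor binding proteins were among the falls past 2-fold, in small numbers. Of 20 Wnt genes compared 2 fell past 2-fold, and of 31 growth factors and receptors 2 did. Over all genes compared the share was 0.787%. None of these falls stayed past 2-fold with normexp. Nkd2, an inhibitor of Wnt signalling, fell by 1.14, with levels of -0.25, -0.02, 1.12 and -0.02 on the 4 arrays, and the related Nkd1 had 1.18 in untreated and 0.50 in treated KO vessels. Dkk2, a secreted Wnt antagonist, was at least 4.51-fold lower and was below background on every array but KO control. Sfrp1, another antagonist, went the other way, from 0.11 to 0.81. The list of 17 measured Wnt genes had 5 above 0 and a median of -0.23. The insulin-like growth factor binding proteins Igfbp7 and Igfbp5 fell by 1.15 and 1.05, both at dim levels. The list of growth factors and their receptors did not fall as a group, with 15 of 30 measured members above 0 and a median of -0.01 (0.05 after another background correction). Of 18 HOX, T-box and other positional factors 3 lay above 0, with a median of -0.22, and Tbx1 rose by 1.11, with 1.05, 0.27, -1.53 and -0.42.

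Further genes with a mean level at or above the 75th percentile were named by size alone. Upward, Prelid2, a mitochondrial lipid transfer protein homologue, rose by 1.01 and had levels of 0.97, 0.61, -0.30 and 0.71. G0s2, an inhibitor of fat breakdown, had 4.18, 3.4, 2.03 and 2.91. Both had their lowest value on KO control, as did the small GTPase Rrad at -0.07 and Ms4a6bl1 at -0.21. Gpr63 (0.97) and Gpatch4 (0.88) were highest on KO Ang II. Downward, Cyp7b1, an oxysterol hydroxylase, fell by 1.26, with 0.29, 0.83, 0.78 and -0.47, and was low on KO Ang II alone. Dusp13b (-1.26) and Acoxl (-1.17) had their highest value on KO control, and Asf1a (-0.84) and Erc2 (-0.81) did not reach 2-fold.

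At any brightness the splicing-associated Pnn rose most, by 1.39, with levels of -0.18, 0.16, -1.98 and -0.59, and KO control was the low array. Fam107a rose by 1.14 in a probe with 10 spots, with -2.29, -2.99, -1.43 and -0.29. Mex3b (1.12) and Adgrg7 (1.1) rose from dim levels. As bounds, Irs3, an insulin receptor substrate, was at least 4.42-fold higher, Dnajb13 and Tead4l1 at least 2.44-fold and Baiap2 at least 2.35-fold. Pdilt was at least 11.1-fold lower, Arsl at least 8.78-fold and Pdha2 at least 3.83-fold. Pdilt, a testis disulphide isomerase homologue, had a level of 0.81 in untreated and -4.83 in treated KO vessels, while WT control and WT Ang II read -4.79 and -4.93, below background, so 1 array alone read it. A second probe could be read for 7 of the genes past 2-fold, and 4 of the 7 had the same sign and 1 passed 2-fold.

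Immediate early and housekeeping genes framed the response. Atf3, a stress-induced factor, had levels of 4.55 and 3.97 for untreated and treated WT vessels and 3.89 and 4.72 for untreated and treated KO vessels, a difference of 0.83 and the highest of the 4 on KO Ang II. The orphan receptors Nr4a1 and Nr4a2 differed by -0.56 and -0.47, with WT differences of 1.22 and 0.92. Over 25 measured immediate early factors 15 were above 0 and the median was 0.04. The 66 ribosomal protein genes had a median of 0.03 and ranged from -0.30 to 0.29, and 51 respiratory chain subunits had a median of -0.02 (0.08 after another background correction). Heat shock proteins of the cytosol, the stress chaperones outside the ER, had 8 of 18 above 0 and a median of -0.01 (0.08 after that correction). The clock gene Cry2 had 5.70, 6.11, 7.12 and 6.42.

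Probes without a gene name were each counted, while a named gene was counted by its brightest probe only. Their shares are thus not like for like, and their brightness was not compared. Of 7067 such probes well above background on both KO arrays, 8 (0.113%) passed 2-fold upward and 62 (0.877%) downward, against the 0.138% and 0.482% of named genes given above, with a median difference of 0.01 and an SD of 0.30.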

How the data were processed

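The intensity values are scanner output deposited by the authors: per the file headers, processed signals had background and spatial trend removed on each array and were not normalized between arrays. Median pixel and background intensities, signal errors and 0 or 1 flags were also deposited. The value table deposited by the authors is on a log2 scale and served as an alternative. For 98.3% to 98.4% of probes per array its values differed from the log2 processed signal by 1 constant to within 0.01, so its scale is known but the reason for the constants is not. Column medians were 2.29 for untreated and 2.22 for treated WT, and 2.27 and 2.11 for KO. The submitters' processing notes name Feature Extraction 12.1.1.1 and the file headers 10.7.1.1.

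Outlier spots were left out (301 to 372 per array), spots of a probe were averaged, and log2 signal minus the array's 75th percentile (58.7, 62.5, 47.3 and 52.1 in the order above) was used. From 40.6% to 43.5% of probes were well above background, by more than 50% of their spots, and no spot was saturated. The median SD over replicate spots was 0.07 on each KO array. The arrays lay at positions 1 to 4 of 1 slide in the same order, so position and group cannot be told apart. A gene took its brightest probe by mean level over the KO arrays, and its WT levels were read from that same probe. Where 1 side was dim, the floor was the lowest value well above background on that array, or the probe's own value if higher, and the result is written as "at least". Names came from RefSeq (GRCr8) for 21107 probes, and 24487 had none. Promoters came from RefSeq (GRCr8).

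The members and the 70 gene lists were chosen with earlier results of these data known. Named were Prkcb, the 10 largest differences each way at a mean level of 0 or more, the 6 largest at any level, the 4 largest bounds, up to 6 members per list, and members of the angiotensin, kinase C, oxidase, smooth muscle and endothelial lists. Genes given as holders of a motif or as well-known members (Hspa5, Hyou1, Atf4, Ddit3, Ldha, Pgk1, Cd68, Nupr1, Chac1) were named after their values were seen. Some genes that the rule names are not reported here. Lists are described by their counts and medians. Steps were tested on simulated data. Alternatives were normexp in limma 3.58.1 (R 4.3.3) on median pixel signals with offset 50, quantile normalization, other percentiles, filters and flags, the mean of probes, outlier spots kept and 1.5-fold. Other steps used Python 3.11.15, numpy 2.4.6, pandas 2.3.3 and matplotlib 3.10.9. The number of arrays limits the precision.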

Additional observations from a re-analysis of the deposited data

Results flagged for a closer look

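In 7 gene lists the median difference with Ang II had opposite signs in KO and WT vessels and passed a size limit in both. Lists were kept where both medians were above 0.095 in size, a limit taken from the spots of a probe that does not measure the spread between animals. Interferon-stimulated genes, at -0.090 in KO and 0.69 in WT, and NF-kB genes, at -0.07 and 0.56, also had opposite signs but missed this limit in KO. The difference between the genotypes was not tested, since each group had 1 array. For metalloproteinases and inhibitors the medians were -0.25 in KO and 0.10 in WT, over 19 genes in each. Plasminogen activators, serpins and coagulation genes had -0.14 and 0.21 over 19 genes. Nitric oxide and cGMP genes had -0.10 and 0.12 over 16 genes. The cytokines and chemokines had -0.18 and 0.70 over 36 genes, and MHC class I and peptide loading genes had -0.23 and 0.56 over 19 genes. Blood endothelial markers went the other way, with 0.28 in KO and -0.10 in WT over 15 genes. Skeletal muscle markers had -0.17 over 7 genes in KO and 0.25 over 6 in WT.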

How the results depend on the processing

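No paired analysis was possible because each group has 1 array and no test was fitted. The 18 genes higher and 73 lower became 0 and 4 with normexp background correction, 395 and 814 with no filter on dim probes, 190 and 302 at 1.5-fold, and 42 lower when only genes measured on both arrays were kept. With the flag set by 50% or more of a probe's spots they became 42 and 132, and with any spot 91 and 151, alternatives chosen after seeing the data. Other scalings gave 18 to 24 higher and 62 to 73 lower, and the mean of probes 24 and 79. Normexp, which shrinks differences of dim probes, moved the medians of 15 of 59 lists by more than the technical spread and changed the sign of 18. It moved metalloproteinases to -0.12, MHC class I genes to -0.12, Wnt genes to -0.10, positional factors to -0.10, collagens to -0.07 and blood endothelial markers to 0.11, and turned fatty acid synthesis from -0.12 to 0.028. Proteasome subunits went from -0.06 (9 of 31 above 0) to 0.04 (24 of 31), metallothioneins, iron and haem genes from -0.06 to 0.03, and NRF2 targets from -0.01 to 0.07. Over all measured genes its median was 0.03. Under every other alternative run the medians of 58 or 59 of the 59 lists moved by less than the technical spread. No gene named in the text with a difference of at least 0.30 in size changed sign. Differences of dim genes and all bounds are limited by signal over background, and leaving out a replicate was not possible.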
